A study of Homo sapiens with 4 samples.

Results

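Interferon-stimulated genes were examined in single MCF10A cells, an untransformed human mammary epithelial line, here carrying an H2B-GFP label. The list held 39 genes, fixed by name, and all 39 had a row in the deposited tables, out of 19577 gene rows in all. A cell with at least 1 UMI (unique molecular identifier, which marks 1 captured transcript) was seen for 39 members in low-resolution replicate 1 and high-resolution replicate 2, and for 38 in each of the other plates, where BST2 or MX2 was absent. The members lie on 16 chromosomes, with clusters of neighbours: IFIT1, IFIT2, IFIT3 and IFIT5 on chromosome 10, OAS1, OAS2 and OAS3 on chromosome 12, and IFITM1, IFITM2 and IFITM3 on chromosome 11.

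The cells came from circular patches cultured for 6 days, with no interferon, drug or genetic perturbation named in the labels. For 2 plates, bands 1000 to 1500 µm wide were phototagged (low resolution), and for 2 plates bands of 250 µm (high resolution). The paper names 2 biological replicates per experiment, and each was taken here as 1 plate of 384 wells from a patch of its own. The plate was thus the replicate (n = 2 per experiment), and all plates held the same line. The region from which each well was sorted was not analysed here.

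Type I and type III interferons bind receptor pairs on the cell surface, which activate the kinases JAK1 and TYK2. These phosphorylate STAT2, which acts with IRF9 in a complex that binds interferon-stimulated response elements in the promoters of antiviral genes. Many such genes are also transcribed at a low, tonic level in unstimulated cells, and several respond to IRF1 or to other inputs without interferon. Epithelial-to-mesenchymal transition (EMT) is the change in which epithelial cells lose CDH1 and EPCAM and gain VIM and FN1.

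After the limits on features and mitochondrial share that the study states, 1146 of 1536 wells remained as cells, with median totals of 30118 to 40893 counts per cell. The paper reports more analysed cells for each experiment than remained here, so the set of cells is not the same. The source of this difference was not tested. KRT5 and KRT6A, keratins of basal breast epithelium, were detected (1 UMI or more) in no fewer than 99.3% of the cells of any plate, and KRT17 in no fewer than 92.1%, whereas TP63 was seen in at most 4.12%. The leukocyte markers PTPRC and CD3E were seen in at most 1.71% and 0.341% of cells, and the stromal and endothelial markers COL1A2, PDGFRB, VWF and CDH5 in at most 1.37%. CD14 (36.9% to 59.8% of cells), CSF1R (16.2% to 25.5%), PECAM1 (28.5% to 47.1%) and COL1A1 (17.3% to 27.6%) were present as well. Wells with under 500 features, of which there were 8 to 14 per plate, held 2 to 9 member UMIs among 8772 to 18040 UMIs. A member seen in only a few percent of cells could not be told apart from such stray counts.

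The feature that interferon-stimulated genes are known to share is the response element, searched here as GAAANNGAAA on either strand, with overlapping matches counted, in the 300 bases from 250 before to 50 after each RefSeq start. Of the 39 members, 32 had a promoter entry, and 22 of the 32 (68.8%) held at least 1 match, against 4.38% of the 27305 genes in the table and 3.57% of all 35116 promoters. The members without an entry were IFITM2, IFIT2, IRF7, MX2, OAS2, OASL and USP18. A match is a description of these letters and not evidence of binding. Promoters of 4 members are shown as examples of genes that passed the test between cells below, with and without a match: IFI44L (chr1:78620198-78620497, plus strand), IFI6 (chr1:27672143-27672442, minus strand) and IFITM3 (chr11:320811-321110, minus strand) rose with EMT, and HERC6 (chr4:88378602-88378901, plus strand) fell (GRCh38.p14, 5′ to 3′ along the gene's strand, matches in capitals).
IFI44L: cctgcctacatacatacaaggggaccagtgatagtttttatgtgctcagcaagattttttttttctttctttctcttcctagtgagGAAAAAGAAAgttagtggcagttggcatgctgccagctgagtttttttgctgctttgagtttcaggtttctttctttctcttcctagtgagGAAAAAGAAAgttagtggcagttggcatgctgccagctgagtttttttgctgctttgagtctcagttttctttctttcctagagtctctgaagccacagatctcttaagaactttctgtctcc
IFI6: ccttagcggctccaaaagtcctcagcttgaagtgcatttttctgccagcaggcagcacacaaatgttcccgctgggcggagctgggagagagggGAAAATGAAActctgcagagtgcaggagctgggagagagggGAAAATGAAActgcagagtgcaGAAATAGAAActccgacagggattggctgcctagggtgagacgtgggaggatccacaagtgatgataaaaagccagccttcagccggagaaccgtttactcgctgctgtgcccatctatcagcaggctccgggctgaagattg
IFITM3: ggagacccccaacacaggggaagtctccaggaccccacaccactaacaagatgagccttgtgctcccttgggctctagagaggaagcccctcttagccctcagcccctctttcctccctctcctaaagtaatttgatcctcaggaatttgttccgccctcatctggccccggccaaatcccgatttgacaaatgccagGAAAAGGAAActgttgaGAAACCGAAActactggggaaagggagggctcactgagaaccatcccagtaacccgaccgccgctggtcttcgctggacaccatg
HERC6: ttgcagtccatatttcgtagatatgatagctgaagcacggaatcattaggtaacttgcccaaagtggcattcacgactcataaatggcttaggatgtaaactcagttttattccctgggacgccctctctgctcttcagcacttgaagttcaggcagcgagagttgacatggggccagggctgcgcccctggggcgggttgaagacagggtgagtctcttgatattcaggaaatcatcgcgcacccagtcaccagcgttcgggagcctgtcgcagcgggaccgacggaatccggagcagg
IFI44L held 2 matches, the nearer beginning 73 bases before the start. IFI6 held 3, the nearest at 93 bases, IFITM3 held 2, at 52 and 35 bases, and HERC6 held 0.

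The basal level of the list was low and lay in a few genes. Levels are given as counts per 10000 counts of a cell, averaged over the cells of a plate. They come from transcript ends and were not divided by gene length, which this method does not require. IFITM2, a membrane protein that restricts virus entry, stood at 4.44 and 4.22 in low-resolution replicates 1 and 2, and at 3.19 and 2.85 in their high-resolution counterparts (mean 3.67 ± 0.776 SD, n = 4). It alone made up 41% of the summed level of the members. Its relative IFITM3 followed with 1.5, 1.63, 1.41 and 1.47 in the same order of plates. SAMD9, which blocks poxvirus replication, stood at 1.08, 0.890, 0.695 and 0.756, and LGALS3BP, a secreted galectin ligand, at 0.544, 0.578, 0.548 and 0.558. These 4 genes kept this order in every plate and together held 73.6% of the sum.

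Below them the order was not firm, since no other member exceeded the next one in every plate. IFI16 (0.286 ± 0.0612), IRF1 (0.225 ± 0.0627), IFIT5 (0.221 ± 0.0536), IFI44L (0.188 ± 0.0256), XAF1 (0.176 ± 0.0712) and OAS3 (0.166 ± 0.0588, SD over 4 plates) came next. The genes usually taken as the core of an interferon response were scarce. ISG15, the ubiquitin-like modifier, had a UMI in 11.3%, 7.01%, 12.4% and 9.90% of cells (95% exact binomial interval in low-resolution replicate 1, 7.94% to 15.6%, counting error only). IFIT1, which binds foreign RNA, was seen in 3.69% to 6.53%, the dynamin-like GTPase MX1 in 0.687% to 2.05%, and RSAD2 (viperin) in 0.687% to 2.06% of cells. MX2 had no UMI in high-resolution replicate 1 and BST2 (tetherin) had none in low-resolution replicate 2, which allow shares of up to 1.03% and 1.11% of cells with a UMI and set no limit on the cells that express the gene. In all, 16, 15, 15 and 15 members reached 20% of cells, 15 of them in every plate, and 7 stayed under 5% in every plate (OAS2, IFI27, RSAD2, MX1, HERC5, BST2 and MX2). With each cell thinned to 10000 UMIs, 7, 5, 7 and 5 members reached 20%.

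IFITM1, IFITM2 and IFITM3 are close copies of one another, and in GENCODE v29 (GRCh38) the IFITM2 gene (chromosome 11, 307631 to 315272, plus strand) spans IFITM1 (313506 to 315272, plus strand). How the authors' counting assigned reads that fit more than one of them is not stated by the sources used here. Their separate levels are therefore uncertain. The same holds among the IFIT and OAS genes to a lesser extent.

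Upstream of the members, receptors and kinases were present while ligands were at or near 0. From a list of 69 further pathway genes, 62 had a row. IFNA1, IFNA2, IFNB1, IFNL1, IFNL2 and IFNL3 had no row, IFNG had no UMI in any kept cell, and IFNE, an epithelial type I interferon, was seen in 1.11% to 3.78% of cells. The type I receptor subunits IFNAR1 and IFNAR2 were seen in 80.1% to 88.4% and 28.8% to 44.3% of cells, and the type III subunit IFNLR1 in at most 2.41%. JAK1 was seen in 89% to 96.2% and TYK2 in 52% to 67.9% of cells. STAT2 and IRF9, which act together in that complex, were seen in 21% to 26.6% and 7.56% to 10.6%. CXCL10, a chemokine that interferon strongly induces, was seen in 1.11% to 2.39% of cells.

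Whether a subset of cells carried the program was examined first by counting members per cell. A cell held a UMI for a median of 8 or 9 of the 39 members in every plate, and for 23 at most. The 6 members with the largest levels were seen in many cells, so the other 33 were counted alone. Their median was 4 per cell in every plate, and the highest counts were 13, 10, 13 and 17 members. Cells with 10 or more of the 33 numbered 14, 7, 6 and 11 (4.81%, 2.58%, 2.06% and 3.75% of the plate). The number of cells was highest at 4 members in every plate, with a second, smaller peak at 6 members in high-resolution replicate 2, and 1 cell stood apart: in high-resolution replicate 2 it held 17 of the 33 members with 38 UMIs, among them 7 of IFIT3 and 6 of OAS1, where the next cell of that plate held 13. Its total of 45117 counts lay at the 56.3rd percentile of the plate and its EMT score at the 81.9th.

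**Figure D1:**
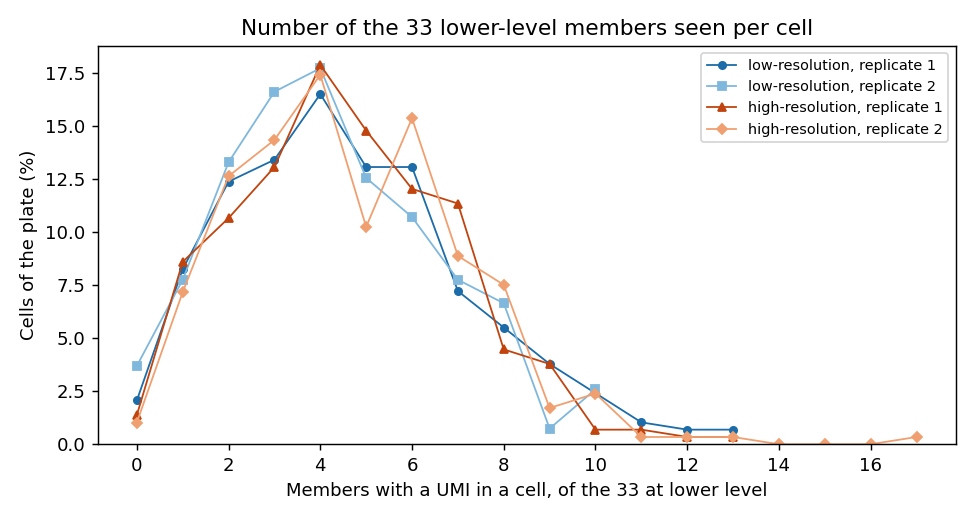
Share of the cells of each plate (%) by the number of the 33 lower-level members with at least 1 UMI in the cell. All 4 plates peak at 4 members, and a single cell of high-resolution replicate 2 reaches 17.

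The spread of the summed members over cells thinned to 10000 UMIs lay mostly in the abundant members. The ratio of variance to mean, which is near 1 when a sum takes the same share of every cell, was 3.64, 3.35, 2.61 and 3.91. Without IFITM2 it was 2.40, 2.42, 1.55 and 2.24, and without IFITM2, IFITM3, SAMD9 and LGALS3BP it was 1.47, 1.45, 1.42 and 1.38. For single genes detected in 20% or more of the thinned cells, the median ratio was 1.14 to 1.17 and the 90th percentile 1.70 to 1.83 over 5026 to 5172 genes per plate. IFITM2 alone had ratios of 2.92, 2.72, 2.91 and 3.43, and IFITM3 of 2.42, 2.78, 1.48 and 2.71, with IFITM3 below the 90th percentile in high-resolution replicate 1.

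Members varied together only weakly. For the 27 members detected in 5% of cells or more on each plate, the median Spearman rho over their pairs was 0.029, 0.023, 0.026 and 0.031 across the cells of each plate, and 0.0027, 0.0104, -0.0011 and 0.00045 at 10000 UMIs. Cells of a plate share a library and differ in depth, and in counts this sparse such values are a description only. The mean over plates reached 0.2 in 3 pairs: IFITM2 with IFITM3 (0.301), IFI44L with IFITM3 (0.258) and IFITM3 with LGALS3BP (0.227). IFI44L also went with LGALS3BP (0.186), IFIT3 (0.158), IFI16 (0.157) and IFI44 (0.141), and SAMD9 went with IFITM2 (0.187) and IFIT5 (0.164). Among the OAS genes, which make the 2′-5′ oligoadenylate that activates RNase L, OAS1 went with OAS3 (0.140). The lowest value was that of IFITM2 with OAS3 (-0.156).

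**Figure D2:**
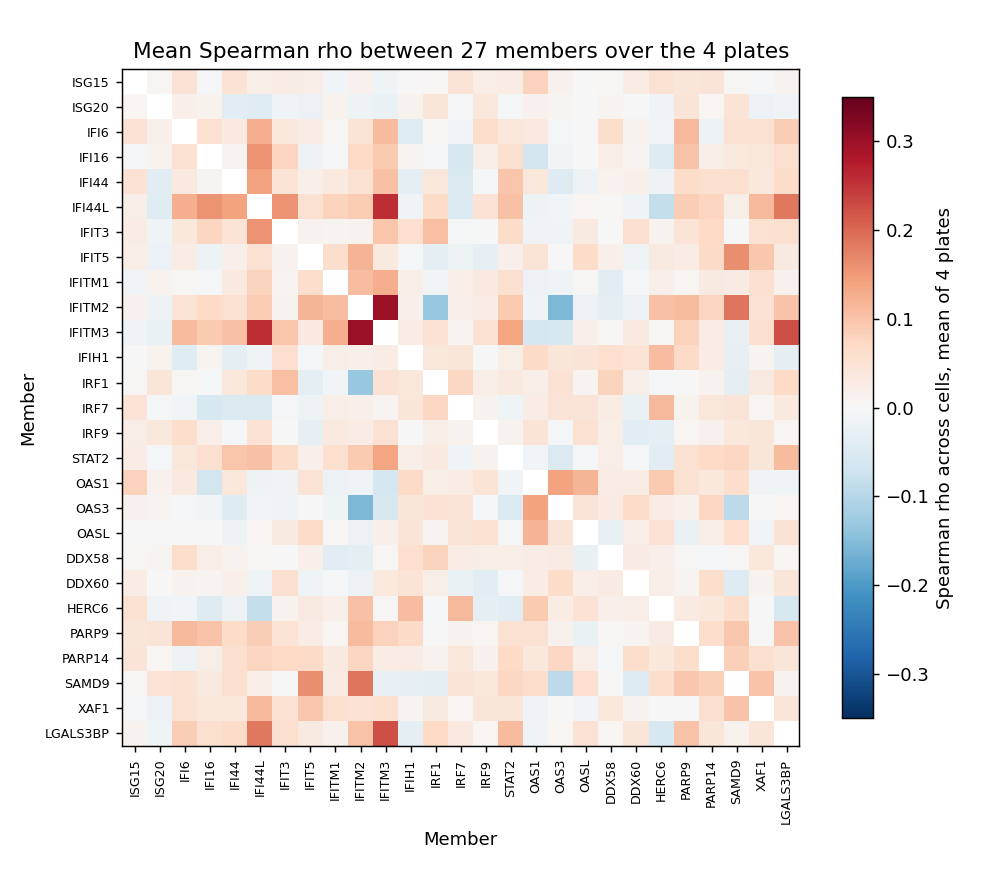
Mean Spearman rho over the 4 plates for each pair of the 27 members detected in 5% of cells or more on each plate, from -0.35 (blue) to 0.35 (red). Most of the map is near 0, with the deepest colour for IFITM2 with IFITM3 at 0.301 and IFI44L with IFITM3 at 0.258.

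A test that did not read the genes used to pick the cells was then made. The 27 members were split by alternate places of the list into set A (14 members) and set B (13 members). In each plate, the top 10% of cells by the mean z-score of one set was compared with the remaining cells on summed counts, and only members of the other set were read (edgeR quasi-likelihood test with the plate as a block, Benjamini-Hochberg adjustment over all genes tested). The top 10% is a range of a score and not a cell type, and 4 to 17 cells per plate lay within 0.05 of its limit.

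For cells high in set A, 2 of the 13 members of set B were higher and 0 lower, where 3.51% of all 11972 genes tested were higher. IFI44L stood at 0.317, 0.302, 0.245 and 0.465 in the chosen cells (counts per 10000 of the summed cells) and at 0.172, 0.109, 0.178 and 0.136 in the others, so the classes did not overlap. Its log2 difference was 1.18 ± 0.204 (SE, n = 4 plates, adjusted p = 0.000225, edgeR). IFI44L had a UMI in 31.03%, 44.44%, 32.14% and 58.62% of the chosen cells. In the other cells it was seen in 31.78%, 22.41%, 38.28% and 32.06%, so the share was not larger in replicate 1 of either experiment. IFITM2 stood at 7.20, 4.82, 4.42 and 4.28 against 3.75, 3.97, 2.80 and 2.24, a log2 difference of 0.70 ± 0.0854 (adjusted p = 1.51e-06, edgeR). The median of the 13 members was 0.43 on the log2 scale, with 10 above 0, against -0.01 over all genes. Among members that did not pass, IFI16 differed by 0.54 (adjusted p = 0.0736, edgeR) and the RNA sensor DDX58 (RIG-I) by -1.04 (adjusted p = 0.344, edgeR).

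For cells high in set B, 1 of the 14 members of set A was higher and 0 lower, where 1.54% of all 11921 genes were higher. IFITM3 stood at 2.12, 2.54, 1.95 and 1.75 in the chosen cells against 1.24, 1.4, 1.26 and 1.31, again without overlap, a log2 difference of 0.62 ± 0.0904 (adjusted p = 0.000212, edgeR). IFITM3 had a UMI in 93.1%, 85.2%, 96.4% and 93.1% of the chosen cells. Among the others it was seen in 88.4%, 88.8%, 92.6% and 93.5%, so the share was not larger in replicate 2 of either experiment. The median of the 14 members was 0.29, with 10 above 0, against -0.02 over all genes. IFIT3 (log2 difference 1.4, adjusted p = 0.0654, edgeR), IFI44 (1.17, adjusted p = 0.185) and DDX60 (1.14, adjusted p = 0.115) had larger differences that did not pass. ISG15 (-0.13), OAS1 (-0.26) and OASL (-0.23) were near 0 or below.

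The chosen cells differed in other ways too. For set A, their median EMT score was 0.647, 0.639, 0.498 and 0.573 against -0.077, -0.266, 0.297 and -0.0438 in the other cells. For set B it was 0.710, -0.282, 0.428 and 0.249 against -0.0791, -0.239, 0.296 and 0.0916, so lower in low-resolution replicate 2. For set A and for set B, median totals of the chosen cells were lower in every plate (set A, 23491 against 31855 counts in low-resolution replicate 1). With the top 10% taken separately among EMT-high, middle and EMT-low cells, IFI44L and IFITM2 still passed for set A, and for set B IFITM3, IFIT3 and DDX60 did (an alternative chosen after seeing the data). Without the plate in the model, 0 members passed for either set, with adjusted p of 0.0539 for IFI44L, 0.154 for IFITM2 and 0.287 for IFITM3. IFITM2 and IFITM3 lie in different sets, and the part of reads shared between these copies was not tested.

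**Figure D3:**
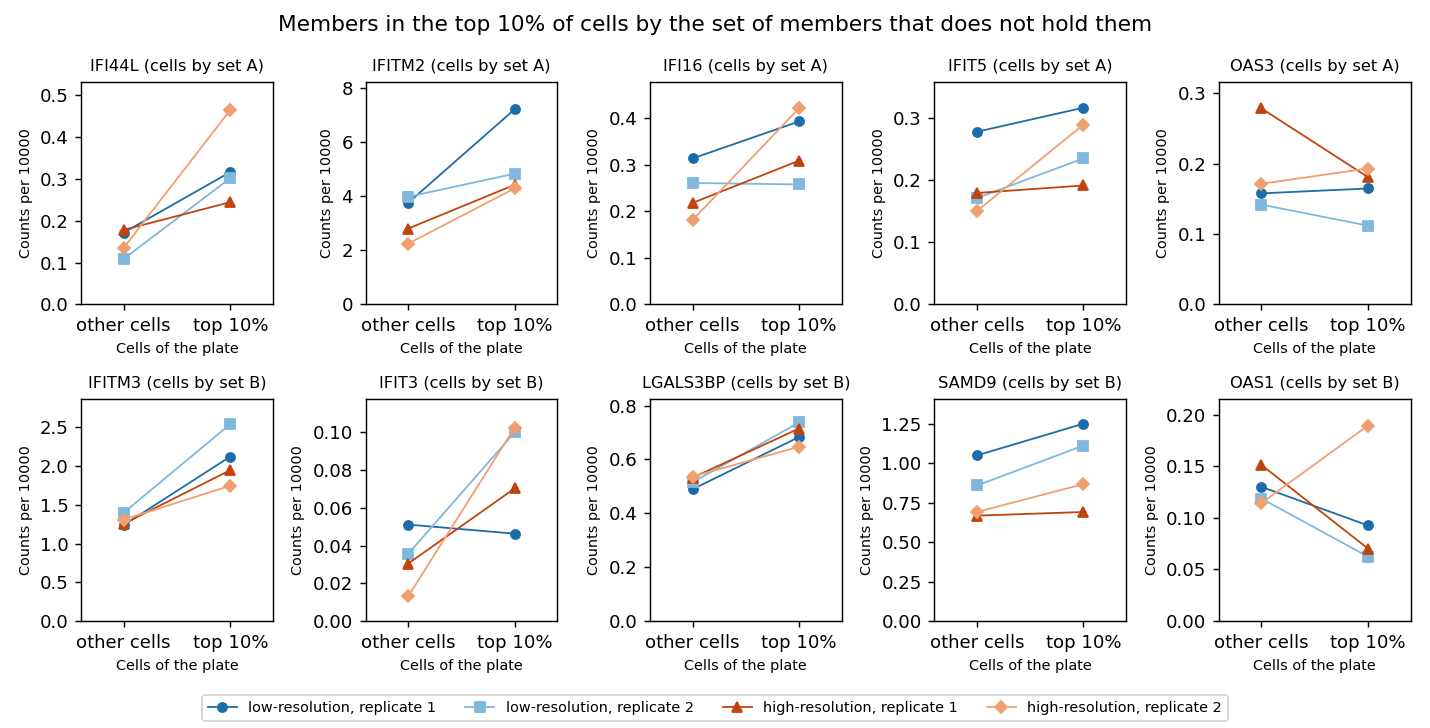
Level (counts per 10000 of the summed cells) of 10 members in the top 10% of cells by the set that does not hold them and in the other cells, 1 line per plate. IFI44L, IFITM2 and IFITM3 rise along all 4 lines.

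How the members stood along EMT was a further question. The EMT score was the GSVA (gene set variation analysis) score of a mesenchymal list minus that of an epithelial list, which hold no member. Across cells, the mean z-score of the 27 members (ISG score) had a rho with the EMT score of 0.208, 0.124, 0.142 and 0.133 (mean 0.152 ± 0.0383 SD, n = 4 plates). The summed level of the members gave 0.080, -0.078, -0.043 and -0.068, which is opposite in sign to the score in 3 of 4 plates. IFITM2 itself had a mean rho of -0.244 with the EMT score and IFITM3 of 0.266. The ISG score had a mean rho of -0.202 with the S-phase score and -0.159 with the G2/M score.

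EMT-high cells (the third of a plate with the highest score) and EMT-low cells (the third with the lowest), 90 or 97 cells each per plate, were then compared on summed counts with the plate as a block. VIM, which is on the mesenchymal list and so helped to choose the cells, was 2.38, 2.06, 2.95 and 4.23 counts per 10000 in EMT-high cells and at most 0.0746 in EMT-low cells. Of the 39 members, 30 passed the filter on low counts, and 12 of these were higher in EMT-high cells and 4 lower (adjusted p under 0.05, edgeR). Among the 12 were IFIT3, IFI6 and IFI44, which passed that filter through their sums in EMT-high cells. Of all 11266 genes tested, 20.9% were higher and 20.3% lower. The median log2 difference was 0.12 over the 30 members and 0.01 over all genes.

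The largest differences were those of IFI44L, IFIT3, IFI6 and IFI44, genes of little known biochemistry except IFIT3, which partners IFIT1 on viral RNA, and IFI6, which protects cells from flavivirus replication. IFI44L stood at 0.416, 0.256, 0.327 and 0.279 counts per 10000 in EMT-high cells and at 0.0229, 0.0114, 0.0510 and 0.0480 in EMT-low cells, with a UMI in 46.7% to 60.8% of EMT-high and 4.44% to 17.5% of EMT-low cells. The classes did not overlap, and the log2 difference was 3.11 ± 0.250 (SE, 8.63-fold, adjusted p = 1.03e-06, edgeR). IFIT3 stood at 0.0795, 0.0780, 0.0506 and 0.0409 against 0.0115, 0.0171, 0.0139 and 0.00228, again without overlap (log2 difference 2.38 ± 0.361, adjusted p = 0.000223). IFI6 stood at 0.0764, 0.0624, 0.0346 and 0.0454 against 0.0114 to 0.0143 (1.87 ± 0.334, adjusted p = 0.000721). IFI44 was higher in EMT-high cells of every plate, by 1.68 ± 0.373, although its EMT-high levels of 0.0160 and 0.0204 in the high-resolution plates lay below the EMT-low level of 0.0287 in low-resolution replicate 1. IFIT3, IFI6 and IFI44 had a UMI in only 1.03% to 6.67%, 4.12% to 5.15% and 2.06% to 8.25% of EMT-low cells. In EMT-high cells the shares were 10.3% to 17.5%, 10.3% to 20.6% and 6.19% to 19.6%. The EMT-low levels of IFIT3, IFI6 and IFI44 thus rest on few cells, near stray counts, and the size of their differences is uncertain. Since these genes entered the test through the class in which they are high, their calls and their place in this order are not support by themselves.

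The remaining members that rose came from several roles and rose less. IFITM3 stood at 2.00, 2.47, 1.4 and 1.54 against 0.884, 0.862, 1.18 and 1.17 (log2 difference 0.74 ± 0.171, adjusted p = 0.00407, edgeR), and LGALS3BP at 0.651, 0.693, 0.628 and 0.622 against 0.330, 0.404, 0.457 and 0.505 (0.53 ± 0.116, adjusted p = 0.00281). In both genes the classes did not overlap. The transcription factors IRF1 (0.67) and STAT2 (0.69) rose, and IRF9, the DNA-binding partner of STAT2, differed by 0.81 without passing (adjusted p = 0.165). IFI16, a DNA sensor, rose by 0.79, the helicase-like DDX60 by 1.03, OAS3 by 0.66 and PARP14, an ADP-ribosyltransferase, by 0.64.

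Members that fell included the most abundant one. IFITM2 stood at 3.87, 3.52, 2.33 and 2.13 in EMT-high cells and at 4.57, 5.27, 3.52 and 3.11 in EMT-low cells (log2 difference -0.57 ± 0.0824, adjusted p = 0.000146, edgeR), lower in every plate, with overlap between plates. HERC6, a relative of the ISG15 ligase HERC5, stood at 0.0581, 0.0530, 0.0479 and 0.0635 against 0.181, 0.210, 0.109 and 0.130, without overlap (-1.53 ± 0.204, adjusted p = 7.69e-05). IFIH1 (MDA5), a sensor of long double-stranded RNA, fell by 0.86 and SAMD9 by 0.27, both on the log2 scale. Several of these calls were lost when 1 plate was left out, while the differences kept their direction (adjusted p in edgeR without the plate named). Without low-resolution replicate 1, DDX60 (0.0736), PARP14 (0.0651) and SAMD9 (0.154) no longer passed. Without low-resolution replicate 2, this held for IFIH1 (0.105), STAT2 (0.162) and SAMD9 (0.124). STAT2 (0.0817), PARP14 (0.0716) and SAMD9 (0.0536) did not pass without high-resolution replicate 1, nor IFIH1 (0.0844) without high-resolution replicate 2. OAS3 lost its call in thinned cells (log2 difference 0.48, adjusted p = 0.160) and in cells below the median G2/M score (0.34, adjusted p = 0.395). In those G2/M-low cells, IRF1 (0.0985), PARP14 (0.188), IFIH1 (0.0845) and SAMD9 (0.0760) did not pass in edgeR either. STAT2 did not pass in thinned cells (0.105) or without the mitochondrial limit (0.0961). In DESeq2 the adjusted p was 0.0638 for DDX60, 0.122 for STAT2, 0.137 for PARP14, 0.0846 for IFIH1 and 0.171 for SAMD9. Without the plate block, IFITM2 (0.0770), IFIH1 (0.0674), IRF1 (0.0916), STAT2 (0.0875), OAS3 (0.191), PARP14 (0.0744) and SAMD9 (0.308) did not pass in edgeR. IFITM2 and IFITM3 thus lay on opposite sides, as did the sensors IFI16 and IFIH1.

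The 14 members that were tested and did not pass included ISG15 (-0.13, adjusted p = 0.814, edgeR), IFIT1 (0.34, adjusted p = 0.641), IFIT5 (-0.11), IFITM1 (0.06), OASL (0.01), DDX58 (-0.02), PARP9 (-0.02) and XAF1 (0.19). OAS1 differed by -0.50 (adjusted p = 0.101), with 0.0979, 0.0717, 0.128 and 0.175 in EMT-high against 0.175, 0.176, 0.153 and 0.139 in EMT-low cells. Of the 9 members under the filter, UBE2L6, the E2 enzyme of ISG15, was at 0.0489, 0.0249, 0.0160 and 0.0204 in EMT-high cells and at 0 to 0.00860 in EMT-low cells, and was not tested. By promoter, 9 of the 12 members that rose, 2 of the 3 that fell and have an entry, and 6 of the 10 tested without passing held the searched letters. Of the members that fell, IFIH1 held 3 matches and SAMD9 held 1, whereas HERC6, printed above, held 0.

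**Figure D4:**
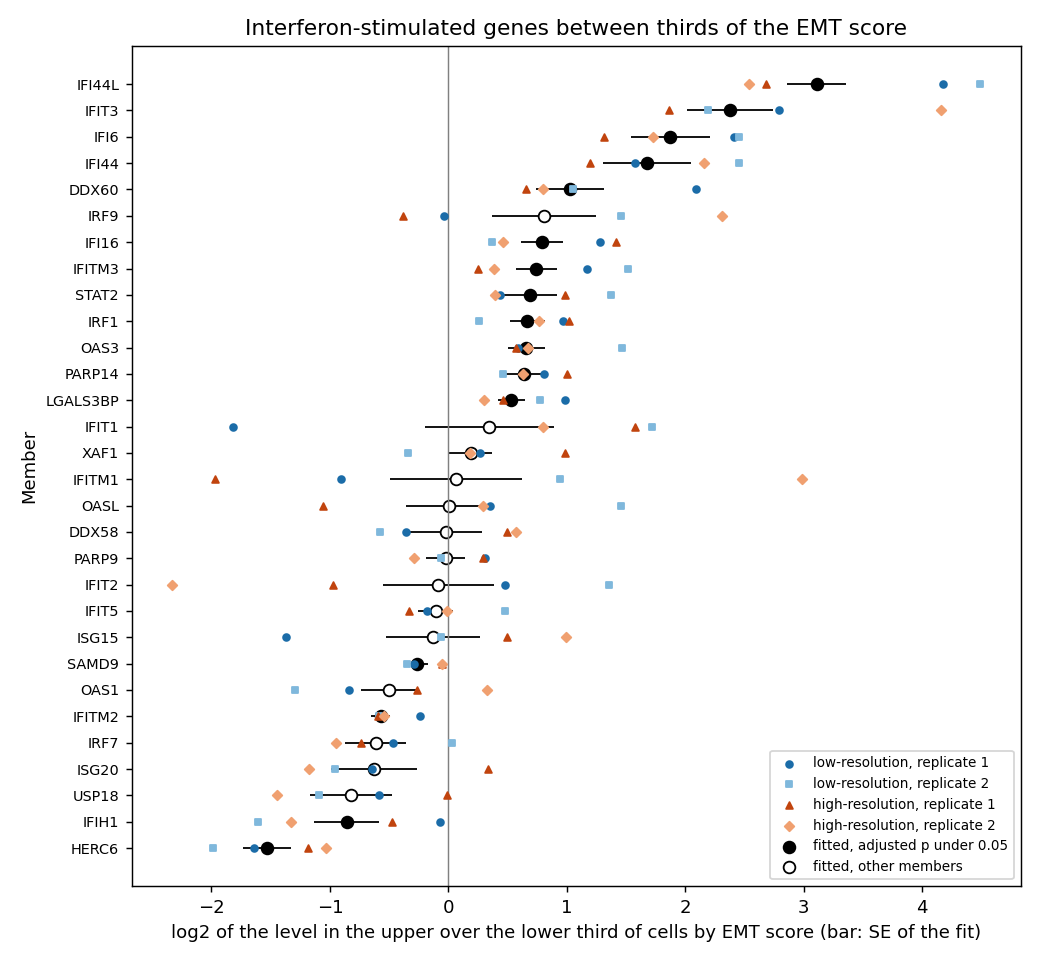
log2 of the level in EMT-high over EMT-low cells (upper and lower class of the axis label) for the 30 members tested, fitted over the plates (black, bar: SE) and in each plate (colours). The 12 filled symbols from LGALS3BP at 0.53 to IFI44L at 3.11 lie to the right of 0, and the 4 filled symbols from SAMD9 to HERC6 at -1.53 to the left.

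The classes also differed in other measures, whose part in these results was not tested unless stated. The median mitochondrial share was 25.9% to 29.3% in EMT-high and 31.7% to 33.8% in EMT-low cells, and the summed level of the members was 10.8, 10.0, 7.65 and 7.53 against 9.35, 9.51, 7.59 and 7.35. Between 26 and 46 cells per plate lay within 0.05 of a limit. Among cells below the median G2/M score of their plate, 7 of 22 tested members were higher and 3 lower (an alternative chosen after seeing the data).

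Of the 69 other pathway genes, 49 were tested, with 16 higher and 8 lower in EMT-high cells, where 20.9% and 20.3% of all genes were. STING1, the adaptor of cytosolic DNA sensing, rose by 2.29 ± 0.120 on the log2 scale and SOCS3, a feedback inhibitor, by 1.87 ± 0.287, while SOCS1, another such inhibitor, fell by 1.04. The kinases JAK1 (0.30) and TYK2 (0.50) rose, as did the interferon gamma receptor subunit IFNGR2 (1.13) and the guanylate-binding GBP1 (1.69). In antigen presentation, B2M (0.46) rose and the peptide transporter TAP2 (-0.98) fell. Of 19 other interferon-induced genes tested, 7 rose, among them SAMD9L (1.38), SHFL (0.86), SP100 (0.61) and PML (0.60), and 5 fell, among them IFI30 (-1.11), EPSTI1 (-0.97), PLSCR1 (-0.92) and LY6E (-0.59).

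Between experiments, few members were called, although most of those tested lay lower in the high-resolution plates. High- and low-resolution plates (2 against 2) were compared on summed counts without a block, and 33 members were tested. IFITM2 and SAMD9 were lower in the high-resolution plates and 0 were higher, where 6.18% and 6.26% of all 12437 genes were lower and higher. IFITM2, with the levels given above, differed by -0.56 ± 0.119 on the log2 scale (adjusted p = 0.0109, edgeR), and SAMD9 by -0.46 ± 0.119 (adjusted p = 0.0252). In both genes the plates of the experiments did not overlap, yet IFITM2 lost its call without high-resolution replicate 2 (log2 difference -0.41). SAMD9 lost its call without high-resolution replicate 1 (-0.42), high-resolution replicate 2 (-0.49) or low-resolution replicate 1 (-0.35). Each of these fits left 1 library in a group. In cells thinned to 10000 UMIs, SAMD9 also lost its call (-0.40, adjusted p = 0.0983, edgeR), and IFITM2 kept its own. At an unadjusted p under 0.05, 2 members were higher and 8 lower, against 1765 and 1750 of all 12437 genes, and DESeq2 called 0 higher and 2 lower. The median over the 33 members was -0.27, with 23 below 0, against -0.02 over all genes. Summed over the pooled cells, the members made up 9.50 and 9.08 counts per 10000 at low resolution and 7.69 and 7.04 at high resolution. The file names place low-resolution replicate 1 on a flow cell of its own, and the experiments cannot be told apart from the day or patch of their plates.

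By role, the 4 OAS genes lay above 0 (0.19 to 0.60) and the 4 IFIT genes below (-1.20 to -0.04), with no member of either group passing. IRF1 stood at 0.152 and 0.202 against 0.246 and 0.30 counts per 10000 (log2 difference 0.59, adjusted p = 0.0820, edgeR). In the same plates VIM was higher by 0.94 and CDH1 lower by 0.68 on the log2 scale. Of 53 pathway genes tested, 13.2% were called, close to the 12.4% of all genes. The calls were 4 higher, STING1 (0.91), SOCS3 (1.53), IRF3 (0.54) and IFNGR2 (0.63), and 3 lower, GBP2 (-1.06), IFNGR1 (-0.51) and HLA-B (-0.77).

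The genes most like the ISG score were sought among 8032 genes detected in 20% of cells or more on all plates. Members, the listed pathway genes and CDH1, EPCAM, VIM and FN1 were left out. The sign also had to be the same in every plate, which left 3169 genes. PSAP, a precursor of lysosomal saposins, had the highest mean rho over 4 plates (0.337), followed by the nuclear RNA NEAT1 (0.337), SELENBP1 (0.328), the membrane peptidase MME (0.322) and FBLN1, an extracellular matrix protein (0.314). The lowest were CYCS, cytochrome c (-0.290), KRT18 (-0.283), ANXA3 (-0.282), PTMA (-0.270) and SFN (-0.268). These values come from the same cells as the score and are a description. Of the genes at the high end, FBLN1, itself on the mesenchymal list, had a mean rho of 0.604 with the EMT score and PSAP of -0.057.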

How the data were processed

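SORT-seq, a plate-based 3′-end method derived from CEL-seq2, was run on sorted single cells of 4 plates (2 per experiment). The authors deposited an expected count for each gene in each well, in which the observed UMI number is raised to allow for UMIs sampled repeatedly. Spike-in rows were included, and wells were neither scaled nor filtered. The submitters' processing notes name STAR 2.7.3a, Seurat 4 and hg38. The handling of multi-mapped reads is not given in the sources used here. The file with the well barcodes was not used, and every plate uses the same 384 wells, so a well number names no cell across plates.

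Here whole UMIs were recovered from the expected counts for shares of cells and thinning. The study's limits were applied, retaining wells that had 2000 to 9000 features and a mitochondrial share below 40%. Plate totals ran from 11709628 to 14992348 counts. A well's expected counts were scaled to 10000 and log-normalized for scores. The EMT score was GSVA with a Gaussian kernel, 1 fit per experiment, over genes seen in at least 1% of cells. Sums per plate (and class of cells) were rounded and tested with edgeR 4.0.16 in R 4.3.3 (TMM, filterByExpr, quasi-likelihood, adjusted p under 0.05 over all genes tested), with DESeq2 1.42.0 as an alternative. SEs are the log2 difference over the root of the F statistic. Scripts were tested on simulated data.

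The members and gene lists were chosen with earlier results of these data known. The text names all members, the pathway and marker lists, and the 5 genes most and the 5 least like the ISG score. No source used here ties a replicate number to a shared patch or day. The plates were taken as separate patches, from the biological replicates that the paper names, and cells were never counted as replicates. Intervals cover counting error only.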

Additional observations from a re-analysis of the deposited data

Results flagged for a closer look

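For 3 members the difference between EMT-high and EMT-low cells itself differed between the experiments (interaction term in edgeR across all 11266 genes, adjusted p under 0.05, where 558 genes passed). For IFITM3 the log2 difference in the high-resolution plates minus that in the low-resolution plates was -0.99 ± 0.141 (adjusted p = 0.000131), with 2.00 and 2.47 counts per 10000 in EMT-high cells of the low-resolution plates and 1.4 and 1.54 in those of the high-resolution plates. For IFI44L it was -1.62 ± 0.443 (adjusted p = 0.0343), and its EMT-low cells stood at 0.0229 and 0.0114 in the low- and at 0.0510 and 0.0480 in the high-resolution plates. For OAS1 it was 1.14 ± 0.327 (adjusted p = 0.0427), with EMT-high below EMT-low cells in 3 of 4 plates and above it in high-resolution replicate 2. The experiments differ in patch, band width and plate, which cannot be told apart.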

How the results depend on the processing

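In the comparison of plates, 2 members were called as reported, 7 with a replicate block, 7 with no filter on low counts, 1 with cells thinned to 10000 UMIs, and 1 to 7 when 1 plate was left out. Over all genes, 1547 were called as reported, 2023 with the replicate block, 2146 with no filter, 929 when thinned and 982 to 1172 without 1 plate. The replicate block, by plate number, rests on numbers that no source ties to a shared patch or day (r of same-number deviations -0.0177), and 2 members were then higher and 5 lower. Leaving out a plate leaves 1 library in a group, which is assumed to vary like the others.

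Between EMT-high and EMT-low cells, 16 members were called as reported, 8 without the plate block, 10 when thinned and 10 in cells below the median G2/M score. Over all genes, 2939 were called without the block and 2872 when thinned. IFI44L, IFI16, IFITM3, LGALS3BP and HERC6 kept their call in all 11 alternatives, whereas STAT2 and SAMD9 each lost it in 6 of 11. IFIT3 and IFI6 kept theirs in the 10 alternatives, and IFI44 in the 7, in which they were tested. In the rest these sparse genes were not tested, so their calls were tried in fewer settings.

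For cells high in set A, 2 members of set B were called as reported, 0 without the block, 4 when cells were chosen at full depth and 6 when chosen by summed counts. Over all genes, 28 (without the block) to 1804 (by summed counts) were called, against 933 as reported. For cells high in set B, 1 member was called as reported, 0 without the block, 3 with no filter on low counts, 3 at full depth, 5 by summed counts, 2 in the top 20% of cells, 3 within EMT classes and 1 to 2 without 1 plate. Over all genes, 1 (without the block) to 1305 (at full depth) were called, against 425 as reported. IFITM1 turned from -0.33 to 1.90 (log2) when cells were chosen by summed counts. The cause of these changes was not tested.

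The mean rho of the ISG score with the EMT score turned to -0.0272 with summed members, and was 0.104 with mitochondrial counts left out. Thinned cells gave a mean of 6 members in 20% of cells and a median pair rho of 0.00311. The ratio of variance to mean was 2.15 without IFITM2 and 1.43 without the 4 largest members. The alternatives within EMT or G2/M classes, below the median G2/M score and without the 4 largest members were chosen after seeing the data. Depth limits the members seen in under 5% of cells, most of which did not pass the filter on low counts.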
